A study of Homo sapiens with 9 samples.

Results

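To ask which genes separate the higher from the lower dose of YK-4-279, the read counts of KHM-5M cells kept with 1 μM of the compound were compared with those of cells kept with 0.3 μM. KHM-5M is a human thyroid cancer cell line, grown here as a culture, and YK-4-279 is a small molecule made as an inhibitor of ETS transcription factors. All cells were treated for 24 h and RNA was selected on poly-T beads before sequencing. The comparison used 6 of the 9 samples, which are replicates 1 to 3 at 0.3 μM and replicates 1 to 3 at 1 μM. The 3 DMSO samples entered no test, and their counts are given only as the level without the compound. Of 58735 annotated genes, 15583 had enough reads to be tested, of which 12905 were protein-coding.

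ETS factors are a family of transcription factors that share a DNA-binding domain which recognises a GGAA core, and several of them sit downstream of the ERK kinases. Immediate early genes such as EGR1 and FOS are switched on within minutes of a stimulus without new protein synthesis, and chemokine genes such as CXCL8 are among the classic targets of the transcription factor NF-kB. Genes for DNA replication and mitosis rise and fall with the cell cycle, so in a culture that is not synchronised their level reflects both the share of cells in each phase and the RNA made per cell, and these cannot be told apart here.

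Counts summed to between 17551482 and 17966028 per sample at 0.3 μM, to between 17046332 and 18238884 at 1 μM, and to between 16903251 and 17716135 in DMSO. A gene with no reads in such a library could still hold 3, which is 0.164 to 0.177 when a library is scaled to 1000000 counts (CPM), and this limit is for counting error only. Pairs of replicates within a group differed beyond sampling noise, with chi-square values of 4.61 to 9.97 per degree of freedom, and each was kept as its own sample. The study's methods call its replicates biological but give another number of them per condition. The labels do not tie the 3 samples of a dose to separate cultures, so the p-values measure the spread between these samples, which may be technical. Of the thyroid markers, the transcription factor gene PAX8 was present with 2742 to 3660 counts in every sample and HHEX with 231 to 320, while TG, TSHR, SLC5A5 and NKX2-1, which mark differentiated thyroid cells, had 0 to 10 counts. The keratin genes KRT8 and KRT18 were high and CDH1, the epithelial cadherin, had 0 to 5 counts. Of 9 leukocyte markers, 7 had at most 3 counts in any sample, NKG7 had 0 to 11, and CD14 had 8 to 21 at 0.3 μM and 30 to 37 at 1 μM.

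Between the doses, 1963 genes were called at an adjusted p under 0.05 by the quasi-likelihood test of edgeR after Benjamini-Hochberg adjustment, or 12.6% of the genes tested. Of these, 911 were higher at 1 μM (5.85%) and 1052 were lower (6.75%), a balance that depended on the genes and tool, with 894 higher and 821 lower among protein-coding genes and 839 higher and 831 lower by DESeq2. Most of the changes were small, the median size among called genes being 0.39 on the log2 scale. Differentially expressed genes (DEGs), which are protein-coding, called and at least 1.5-fold apart, numbered 313 (2.43% of protein-coding genes), with 124 higher (0.961%) and 189 lower (1.46%). The samples of the 2 doses did not overlap in 1917 of the called genes and in 305 of the DEGs, against 31.9% of all genes tested. The count of called genes was 1884 without 0.3 μM replicate 3 and 1555 without 0.3 μM replicate 1, and fell to 1253 without 0.3 μM replicate 2, 1164 without 1 μM replicate 1, 1118 without 1 μM replicate 2 and 948 without 1 μM replicate 3. The DEGs stayed between 233 and 300 in the 6 fits that each left out 1 library.

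**Figure D1:**
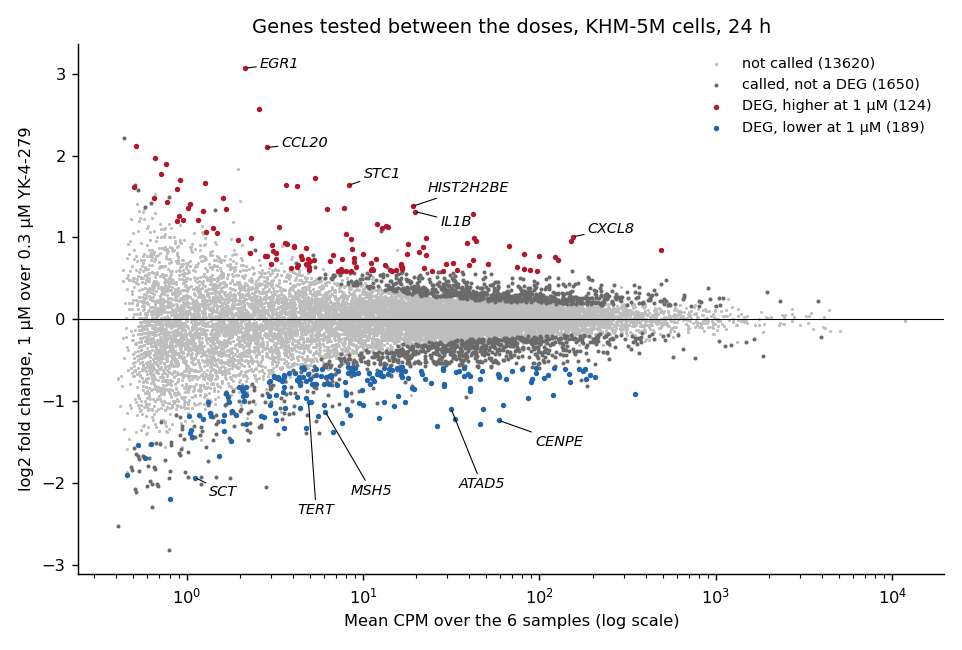
Each point is 1 of the 15583 genes tested. The x axis gives the mean CPM over the 6 samples on a log scale and the y axis the log2 fold change of 1 μM over 0.3 μM. Red and blue mark the 124 higher and 189 lower DEGs, dark grey the other called genes and light grey the genes not called. EGR1 lies highest among the labelled genes at 3.07 on the log2 scale.

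The DMSO samples gave a reference level, described here without a test because the 0.3 μM samples had a part in choosing the genes. For 113 of the 124 higher DEGs the range of the DMSO samples overlapped that of the 0.3 μM samples, and for 6 it overlapped that of the 1 μM samples. For the 189 lower DEGs the corresponding numbers were 163 and 20. The DEGs were chosen for a difference between 1 and 0.3 μM, and no share over all genes tested stands beside these counts. They therefore do not settle where the change lay.

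Genes named from here on kept their call in all 6 fits that left out 1 library, unless the text says otherwise. Among 307 called genes that were named or belonged to a list, 137 lost the call in at least 1 of those fits. Counts of list members called are to be read beside the shares over all genes tested, 5.85% higher and 6.75% lower.

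EGR1, a zinc finger transcription factor induced by ERK signalling (chromosome 5, 138465490 to 138469315, GRCh38), had the largest rise among the DEGs chosen by rule. Its counts were 4, 8 and 12 at 0.3 μM and 76, 74 and 52 at 1 μM, beside 2, 14 and 7 in DMSO. The groups were far apart, although both sets of counts were low (log2 fold change 3.07 ± 0.34 (SE), adjusted p = 3.75e-05). CCL20, a chemokine that attracts CCR6-bearing lymphocytes and dendritic cells (chromosome 2, 227805739 to 227817564), came next with 29, 12 and 16 counts at 0.3 μM and 85, 69 and 88 at 1 μM (2.10 ± 0.28, adjusted p = 0.000221). C11orf96 was called too, at 1.36 ± 0.42 on 6 to 35 counts, but lost the call in 4 of the 6 fits, with adjusted p up to 0.176 without 1 μM replicate 1. STC1, which encodes the secreted glycoprotein stanniocalcin 1, rose from 78, 85 and 52 counts to 287, 184 and 192 (1.64 ± 0.18, adjusted p = 4.06e-05). KRTAP2-3, a hair keratin-associated protein gene, went from 41, 34 and 19 counts to 95, 107 and 87 (1.64 ± 0.24). In all of these every 1 μM sample lay above every 0.3 μM sample, which the rule that chose them required.

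The falls chosen by the same rule were mostly of weakly expressed genes. SCT, the gene of the gut hormone secretin, had 22, 37 and 35 counts at 0.3 μM and 9, 7 and 8 at 1 μM (−1.93 ± 0.37, adjusted p = 0.00287). SLC25A27, a mitochondrial carrier of the uncoupling protein family, went from 40, 37 and 46 counts to 13, 12 and 13 (−1.67 ± 0.31), and DRD4, a dopamine receptor gene, from 101, 115 and 146 to 62, 39 and 41 (−1.33 ± 0.21). The 1 μM samples were the lower 3 of 6 in all these genes, again as the rule required. RTEL1-TNFRSF6B, a read-through transcript annotated over RTEL1 on the same strand, went from 107, 68 and 94 counts to 28, 33 and 44 (−1.33 ± 0.25), and its reads cannot be told apart from those of RTEL1. PPP1R32 (−1.49 ± 0.32) also fell. FAM20A, AC013394.1, AGBL2, WDR86 and ADAMTS10 were called with log2 fold changes of −1.28 to −1.44, and each lost the call in at least 1 fit that left out a library, with WDR86 reaching an adjusted p of 0.2 without 0.3 μM replicate 1.

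Of 24 chemokine and cytokine genes tested, which encode secreted inflammatory signals, 18 were called higher, none lower, with a list median of 0.95 on the log2 scale, against 0.003 over all genes tested. The other 6 genes of the list (CXCL10, CXCL11, CXCL16, CCL2, IL33 and TNFSF15) had too few reads. The promoters of 5 members are shown because the NF-kB motif recurs in this group at similar distances from the start of transcription. Each runs 5′ to 3′ from 250 bases before the start to 50 after it, from RefSeq on GRCh38.p14, and capitals mark GGNNTTTCC on either strand.
CCL20 (chr2:227813592-227813891, + strand): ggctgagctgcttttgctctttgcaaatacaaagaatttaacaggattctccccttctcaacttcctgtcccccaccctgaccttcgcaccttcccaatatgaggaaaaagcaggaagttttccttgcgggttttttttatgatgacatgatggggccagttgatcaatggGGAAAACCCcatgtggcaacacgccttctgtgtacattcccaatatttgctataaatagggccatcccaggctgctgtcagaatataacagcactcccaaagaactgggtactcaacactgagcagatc
CXCL8 (chr4:73740319-73740618, + strand): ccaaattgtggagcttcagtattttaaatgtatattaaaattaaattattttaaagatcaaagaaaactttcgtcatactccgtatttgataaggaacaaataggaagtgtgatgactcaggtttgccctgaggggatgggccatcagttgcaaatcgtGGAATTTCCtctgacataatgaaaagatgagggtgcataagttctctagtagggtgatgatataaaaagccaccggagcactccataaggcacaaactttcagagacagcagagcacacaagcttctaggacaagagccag
CXCL1 (chr4:73869143-73869442, + strand): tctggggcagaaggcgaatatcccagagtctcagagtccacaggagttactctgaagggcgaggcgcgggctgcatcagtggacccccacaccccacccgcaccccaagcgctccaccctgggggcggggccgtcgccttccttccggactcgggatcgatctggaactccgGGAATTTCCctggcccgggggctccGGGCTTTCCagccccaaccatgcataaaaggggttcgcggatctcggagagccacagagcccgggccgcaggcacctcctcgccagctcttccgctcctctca
CXCL3 (chr4:74038640-74038939, - strand): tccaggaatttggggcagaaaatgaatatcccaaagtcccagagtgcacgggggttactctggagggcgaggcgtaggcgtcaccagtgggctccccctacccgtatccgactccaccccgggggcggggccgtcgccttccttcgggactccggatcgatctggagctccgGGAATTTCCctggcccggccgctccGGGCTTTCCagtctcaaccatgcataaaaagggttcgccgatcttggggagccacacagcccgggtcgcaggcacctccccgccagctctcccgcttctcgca
IL6 (chr7:22726950-22727249, + strand): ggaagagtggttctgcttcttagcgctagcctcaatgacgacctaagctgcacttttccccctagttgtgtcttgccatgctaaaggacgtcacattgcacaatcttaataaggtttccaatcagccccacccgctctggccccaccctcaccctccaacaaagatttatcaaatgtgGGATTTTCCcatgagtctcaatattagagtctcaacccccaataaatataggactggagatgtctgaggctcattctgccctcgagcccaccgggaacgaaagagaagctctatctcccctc
The motif began 91 bases before the start in CXCL8, 79 in CCL20 and 72 in IL6, and CXCL1 and CXCL3 each held it at 78 and 53 bases. It was present in 9 of the list's 18 promoters with a sequence. It was in 18.4% of the promoters of higher DEGs (16 of 87) and 3.45% of those of lower DEGs (5 of 145). The higher DEGs with the motif include genes of this list, such as CXCL8, CXCL1 and IL6, so the shares rest partly on the same genes. The share was 9.09% over all protein-coding genes called higher and 6.52% over those called lower. It was 6.72% over all protein-coding genes tested (10206 promoters) and 6.26% over all 27305 promoters. All 9 chemokine and cytokine genes with the motif were called higher, as were 7 of the 9 without it. These are matches of letters in a fixed window, not binding sites.

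CXCL8, which encodes the neutrophil chemokine interleukin 8, had 1860, 1481 and 2123 counts at 0.3 μM and 4853, 3009 and 3072 at 1 μM, beside 1349, 1584 and 1379 in DMSO (1.01 ± 0.14, adjusted p = 0.000218). All 1 μM samples were above all 0.3 μM samples, with replicate 1 the highest. CXCL1 rose from 1972, 1582 and 1841 counts to 4039, 2943 and 3405 (0.96 ± 0.09, adjusted p = 1.06e-05), CXCL2 by 1.00 ± 0.10 and CXCL3 by 1.15 ± 0.12, and these neighbouring chemokine genes are close paralogs whose reads may be split. CXCL5 (0.90 ± 0.08, adjusted p = 3.06e-06) and CXCL6 (0.79 ± 0.16) rose as well. IL1B, the gene of interleukin 1 beta, had 282, 167 and 151 counts at 0.3 μM and 627, 435 and 418 at 1 μM (1.32 ± 0.18, adjusted p = 0.000206), and IL1A rose by 1.13 ± 0.17. IL6 had 121, 55 and 57 counts at 0.3 μM and 272, 145 and 176 at 1 μM (1.36 ± 0.25, adjusted p = 0.00219). In IL1B and IL6, replicate 1 was the highest sample of both doses, and the doses did not overlap, which the naming rule required of IL6. CSF3, a granulocyte growth factor gene, rose by 1.16 ± 0.21 and TNF by 0.60 ± 0.13. IL23A (1.77 ± 0.54), CCL28 (1.21 ± 0.38), CSF2 (0.80 ± 0.18), CSF1 (0.31 ± 0.07) and IL32 (0.33 ± 0.07) were called with all 6 libraries and lost the call in at least 2 of the fits that left out 1. CCL28 lost it in all 6, with adjusted p up to 0.166 without 1 μM replicate 2. CD14, the one leukocyte marker tested, was higher at 1 μM (1.12 ± 0.34) and also lost its call in all 6 fits, with adjusted p up to 0.128 without 0.3 μM replicate 3; the summed level of the 9 leukocyte markers was 0.748 to 1.89 CPM at 0.3 μM and 1.98 to 2.69 CPM at 1 μM, with CD3E and MS4A1 at 0 in all 6 samples, and PTPRC reached 1 count in 1 of them.

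**Figure D2:**
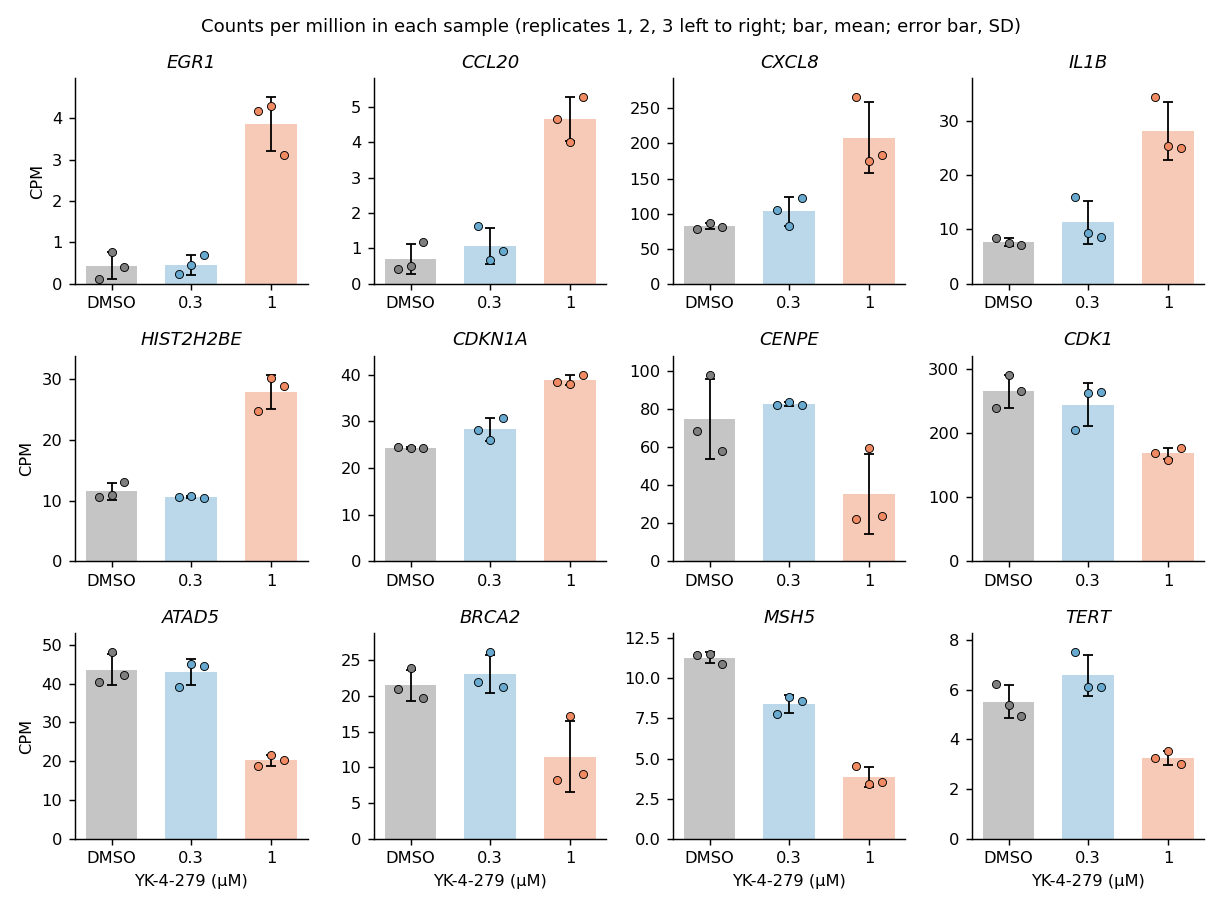
CPM of 12 genes in each sample. The x axis gives DMSO and the YK-4-279 dose in μM, points are replicates, bars are means of 3 samples and error bars are SD. EGR1, CCL20, CXCL8, IL1B, HIST2H2BE and CDKN1A were higher at 1 μM than at 0.3 μM in every sample. CENPE, CDK1, ATAD5, BRCA2, MSH5 and TERT were lower in every sample, with 1 μM replicate 2 closest to 0.3 μM for CENPE and BRCA2.

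Of 19 NF-kB subunits and feedback inhibitors, 7 were called higher and none lower (median 0.24), and of 20 NF-kB target genes for survival and adhesion, also 7 and none (median 0.28). NFKBIE, an inhibitor that holds NF-kB in the cytoplasm, had 424, 333 and 439 counts at 0.3 μM and 627, 556 and 596 at 1 μM (0.59 ± 0.11, adjusted p = 0.00179). NFKBIZ, a nuclear cofactor of NF-kB, rose by 0.59 ± 0.08 and NFKB1, which encodes the p50 subunit, by 0.51 ± 0.07. Among the targets, TNFRSF9, a costimulatory receptor gene, rose from 298, 225 and 265 counts to 530, 419 and 434 (0.83 ± 0.11, adjusted p = 0.000244), and CD83 by 0.70 ± 0.13. PLAU, the gene of the urokinase protease, rose by 0.42 ± 0.07. PTGS2, which encodes the inducible cyclooxygenase, had 85, 29 and 18 counts at 0.3 μM and 247, 110 and 79 at 1 μM, so that the doses overlapped (1.73 ± 0.41, adjusted p = 0.0107), and it lost the call without 0.3 μM replicate 2 (0.0709) or 1 μM replicate 1 (0.0877). TNFAIP3, a feedback inhibitor, was called (0.45 ± 0.12) but not without 0.3 μM replicate 1 or 2 or 1 μM replicate 1, with adjusted p up to 0.133. Without 0.3 μM replicate 2, only 3 genes of each list were called, and 4 of the target list without 1 μM replicate 1. With a correction for GC content, 11 of the 19 subunits and inhibitors were called.

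Of 24 immediate early transcription factor genes tested, 12 were called higher and none lower, with a median of 0.38, and EGR2, EGR3 and EGR4 had too few reads. NR4A3, an orphan nuclear receptor gene, had 17, 8 and 7 counts at 0.3 μM and 31, 31 and 39 at 1 μM (1.67 ± 0.37, adjusted p = 0.00757). IER3 rose from 1535, 1535 and 2013 counts to 2944, 2658 and 2719 (0.73 ± 0.09, adjusted p = 0.000114). The subunits of the AP-1 transcription factor rose by less: JUNB by 0.62 ± 0.10, FOSL1 by 0.48 ± 0.07 and JUN, from 5079, 5261 and 5213 counts to 6930, 6856 and 6761, by 0.42 ± 0.06. FOS had 53, 33 and 45 counts at 0.3 μM and 74, 88 and 85 at 1 μM (0.94 ± 0.22, adjusted p = 0.0112), and its adjusted p was 0.0536 without 0.3 μM replicate 2. The rest of the list included genes with little difference, such as NR4A1 (−0.01), ATF3 (0.007) and ZFP36 (−0.01), none of them called. The AP-1 motif TGANTCA, searched on both strands, was in 13.8% of promoters of higher DEGs (12 of 87), in 6.21% of those of lower DEGs and in 4.50% of those of all protein-coding genes tested. Over all protein-coding genes called, the share was 6.29% for those higher (45 of 715) and 4.09% for those lower (27 of 660). The higher DEGs with the motif include CXCL8 of the chemokine and cytokine list.

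Of 16 ERK feedback genes, whose products damp the pathway that induces them, 4 were called higher and none lower (median 0.23). DUSP5, a nuclear phosphatase that acts on ERK, rose from 262, 218 and 335 counts to 483, 502 and 500 (0.89 ± 0.13, adjusted p = 0.000377). DUSP6, the cytoplasmic ERK phosphatase, SPRY4 and SPRY2 were called at 0.44, 0.33 and 0.28 and each lost the call in at least 2 fits that left out a library, so that 1 member of the list was called without 0.3 μM replicate 2 or 1 μM replicate 1, and 2 without 0.3 μM replicate 1 or 1 μM replicate 3. EREG, the gene of epiregulin, had 60, 67 and 60 counts at 0.3 μM and 189, 145 and 138 at 1 μM (1.35 ± 0.16, adjusted p = 8.11e-05), with no overlap, as the naming rule required. HBEGF rose from 285, 266 and 360 counts to 445, 413 and 445 (0.54 ± 0.12). AREG, the gene of amphiregulin, was called at 1.48 ± 0.40 on 4 to 49 counts but not without 0.3 μM replicate 1, 1 μM replicate 2 or 1 μM replicate 3, with adjusted p up to 0.0896. These 3 were the called members among 6 ligands of the EGF receptor tested (median 0.87), a list made after their values had been seen.

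Of 18 ETS factor genes tested, 2 were called, both higher, with a median of 0.06. That is 11.1%, near the 12.6% called over all genes tested. The number called was 4 without 0.3 μM replicate 3 and 1 in each of the other 5 fits. ELF1 had 860, 914 and 817 counts at 0.3 μM and 1274, 1156 and 1077 at 1 μM (0.46 ± 0.07, adjusted p = 0.000573). ETV5 was called at 0.23 ± 0.07 but in only 1 of the 6 fits that left out a library, the one without 0.3 μM replicate 3, with adjusted p up to 0.167 in the others. ETV1 (0.10 ± 0.08, adjusted p = 0.457), ETV4 (0.12 ± 0.07, 0.266) and GABPA (0.14 ± 0.09, 0.344) did not pass the test. The ETS core motif CCGGAAG, on either strand, was in 12.6% of the promoters of higher DEGs and 15.2% of those of lower DEGs, against 19.1% of those of all protein-coding genes tested. Over all protein-coding genes called, whatever the fold change, the share was 20.8% for those higher (149 of 715) and 17.6% for those lower (116 of 660).

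**Figure D3:**
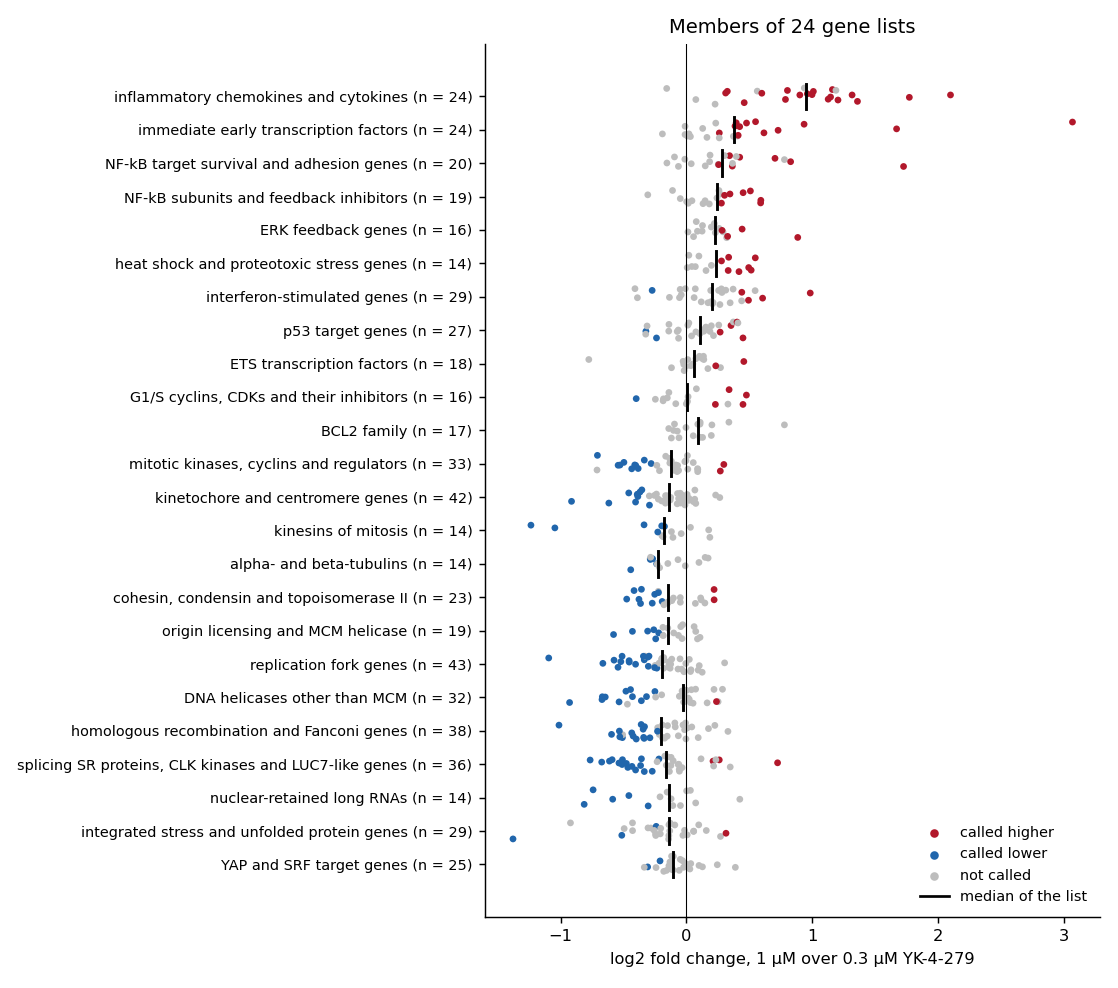
Log2 fold change of 1 μM over 0.3 μM (x axis) for the tested members of 24 gene lists (rows). Red and blue points are members called higher and lower, grey points were not called, and the black tick is the list's median. The chemokine and cytokine list has a median of 0.95, and the replication fork list has 17 of 43 members in blue and none in red.

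Histone genes of the 3 clusters rose without exception among those called, in a list made after values had been seen. Of 29 tested, 11 were called higher and none lower (median 0.66), while 41 of the 70 in the annotation had too few reads. Replication-dependent histone mRNAs normally end without a poly(A) tail, so a poly-T selection catches their tailed transcripts. HIST2H2BE, an H2B gene, had 189, 195 and 181 counts at 0.3 μM and 450, 519 and 482 at 1 μM (1.38 ± 0.11, adjusted p = 1.03e-06). HIST1H2BC rose from 40, 42 and 27 counts to 113, 125 and 96 (1.63 ± 0.21), HIST1H1C, a linker histone gene, from 249, 257 and 300 to 531, 530 and 519 (0.99 ± 0.10) and HIST1H2AC by 0.93 ± 0.09. Every 1 μM sample exceeded every 0.3 μM sample in these 4 genes, which the naming rule required of HIST2H2BE and HIST1H2BC. Their family members are alike enough that reads may be split among them.

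Of 14 heat shock genes tested, 7 were called higher and none lower (median 0.24). HSPH1, a chaperone of the HSP110 family, rose from 2800, 3018 and 2550 counts to 4211, 3748 and 3669 (0.50 ± 0.06, adjusted p = 0.000121), DNAJA1 by 0.51 ± 0.09 and HSPA1B, the inducible HSP70 and a near-identical copy of HSPA1A, by 0.55 ± 0.09. Of 29 genes of the integrated stress and unfolded protein responses, 3 were lower and 1 higher, which is near the shares over all genes. ASNS, the asparagine synthetase gene, had 98, 117 and 300 counts at 0.3 μM and 68, 69 and 59 at 1 μM (−1.38 ± 0.32, adjusted p = 0.00958), with 0.3 μM replicate 3 well above the rest and 161, 168 and 153 in DMSO. Without that replicate its log2 fold change was −0.69, and by DESeq2 with all samples its adjusted p was 0.0717. PSAT1, of serine synthesis, fell by 0.51 ± 0.08, and PHGDH was called at −0.24 ± 0.06 but not without 1 μM replicate 1 (0.0609) or 3 (0.0637). CEBPB was called at 0.31 ± 0.10 with overlapping doses and lost the call in 5 of the 6 fits. Leaving out 0.3 μM replicate 1 or 2 gave 6 lower members in place of 3. Among 27 p53 targets, 4 were higher and 2 lower (14.8% and 7.41%, against 5.85% and 6.75% over all genes tested). Between 1 and 5 were higher without a library (1 without 1 μM replicate 2 or 3, and 2 without 0.3 μM replicate 1, 0.3 μM replicate 2 or 1 μM replicate 1), and none was lower without 1 μM replicate 2 or 3. CDKN1A, the gene of the cell cycle inhibitor p21, rose from 499, 467 and 535 counts to 701, 652 and 669 (0.45 ± 0.09, adjusted p = 0.00282). Of 17 BCL2 family genes tested, 0 were called by edgeR or by DESeq2, and 1 had an unadjusted p under 0.05 in edgeR. Of 29 interferon-stimulated genes, 4 were higher and 1 lower, or 13.8% and 3.45% (2 higher without 1 μM replicate 3). IFIT2 rose from 109, 112 and 82 counts to 229, 186 and 177 (0.98 ± 0.15, adjusted p = 4.00e-04) and IFIT3 by 0.61 ± 0.14.

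Among 33 mitotic kinases, cyclins and regulators, 10 were lower and 2 higher (median −0.12). CDK1, the kinase that drives entry into mitosis, had 3641, 4742 and 4595 counts at 0.3 μM and 3095, 2731 and 2953 at 1 μM (−0.54 ± 0.08, adjusted p = 0.00049). AURKB, the kinase of the chromosomal passenger complex, fell from 1981, 1955 and 1868 counts to 1393, 1286 and 1288 (−0.53 ± 0.06, adjusted p = 6.97e-05), and PKMYT1, an inhibitory kinase of CDK1, by 0.50 ± 0.08 on the log2 scale. PRC1, a spindle midzone protein, was called at −0.71 ± 0.19 but not without 0.3 μM replicate 1 (0.0712) or 1 μM replicate 2 (0.0953). Its reads cannot be told apart from those of AC068831.7 where the annotations overlap on the same strand. CCNB1, the mitotic cyclin that partners CDK1, was higher instead, with 6890, 7204 and 6529 counts at 0.3 μM and 8565, 8173 and 8224 at 1 μM (0.30 ± 0.05, adjusted p = 0.00193), and so was AURKA (0.27 ± 0.06). The doses did not overlap in any of these genes. The CDK1 promoter is shown because it carries both cell cycle motifs searched, with TTTGAA (the cell cycle homology region, CHR) and TTTNGCGC (E2F) in capitals, either strand, RefSeq on GRCh38.p14.
CDK1 (chr10:60778081-60778380, + strand): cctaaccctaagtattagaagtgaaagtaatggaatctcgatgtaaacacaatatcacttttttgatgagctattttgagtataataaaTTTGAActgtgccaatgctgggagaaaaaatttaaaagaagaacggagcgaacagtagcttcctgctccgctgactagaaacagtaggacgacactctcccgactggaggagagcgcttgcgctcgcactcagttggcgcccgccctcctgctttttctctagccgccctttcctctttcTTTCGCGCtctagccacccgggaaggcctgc
TTTGAA was in 57.7% of the promoters of this list (15 of 26) and 45.5% of those of the kinetochore list (15 of 33), against 9.48% of those of all protein-coding genes tested. TTTNGCGC was in 22.9% of the promoters of replication fork genes (8 of 35), against 2.99%. These shares describe the lists and not the members that changed: TTTGAA was in 12.4% of promoters of the protein-coding genes called lower and in 9.23% of those called higher.

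Of 42 kinetochore and centromere genes, 10 were lower and none higher (median −0.14), and of 14 mitotic kinesins, 6 and none (median −0.18). CENPC, which joins the inner kinetochore to centromeric chromatin, fell from 610, 561 and 658 counts to 406, 371 and 399 (−0.62 ± 0.09, adjusted p = 0.000488). KIF18B, a kinesin that shortens microtubules, fell from 2228, 2023 and 2059 counts to 1658, 1648 and 1616 (−0.34 ± 0.07). The kinesin count fell to 2 without 0.3 μM replicate 2 and to 3 without 1 μM replicate 1 or 3. Of 14 tubulin genes, 4 were lower and none higher (2 without 1 μM replicate 3). TUBB, a beta-tubulin, had 38716, 38101 and 36431 counts at 0.3 μM and 28541, 26906 and 26660 at 1 μM (−0.44 ± 0.05, adjusted p = 2.88e-05), and TUBA1B fell by 0.27 ± 0.06, both members of families with near copies. Of 19 E2 enzymes and activators of the anaphase-promoting complex, 2 were lower and none higher, with a median of 0.016. In that list 10 members lay above 0 and 9 below, and 1 was called lower without 0.3 μM replicate 2 or 1 μM replicate 1. UBE2C, a ubiquitin-conjugating enzyme of the anaphase-promoting complex, went from 3309, 3179 and 3347 counts to 2424, 2514 and 2438 (−0.39 ± 0.06, adjusted p = 0.000806). Of 23 cohesin, condensin and topoisomerase II genes, 9 were lower and 2 higher, and 5, 4 and 5 were lower without 0.3 μM replicate 2, 1 μM replicate 1 and 1 μM replicate 3. TOP2A, the topoisomerase that untangles mitotic chromosomes, fell from 14116, 16371 and 16357 counts to 11347, 11048 and 10825 (−0.47 ± 0.06, adjusted p = 0.000144). The 2 higher ones, STAG1 (0.22) and WAPL (0.22), each lost the call in most of the fits that left out a library.

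In some genes, many of them with a long annotated length, the 1 μM libraries did not act alike. CENPE, a kinesin that moves chromosomes to the spindle equator, had 1457, 1514 and 1423 counts at 0.3 μM and 408, 1024 and 400 at 1 μM (−1.24 ± 0.23, adjusted p = 0.00224). CENPF had 7838, 8523 and 7837 counts and then 2994, 6438 and 3174 (−0.91 ± 0.19, adjusted p = 0.00466). BRCA2, which acts in homologous recombination, had 390, 472 and 369 counts and then 151, 296 and 152 (−1.01 ± 0.19, adjusted p = 0.00239). In each, 1 μM replicate 2 lay between the other 1 μM replicates and the 0.3 μM samples. DMSO replicate 2 also stood above the other DMSO samples, with CENPE at 1176, 1782 and 985 counts in DMSO. By DESeq2 the adjusted p was 0.0629 for CENPE and 0.123 for CENPF, and without 1 μM replicate 2 the log2 fold change of CENPE was −1.84. Over 9431 protein-coding genes with a mean of at least 10 CPM, 24 were more than 1.5-fold higher in 1 μM replicate 2 than in both other 1 μM samples, and none was as far below them. Their median annotated length was 10812 bases, against 5145 over all protein-coding genes tested. This length is not the genomic span: it was 11690 bases for CENPF, which runs from 214603195 to 214664588. Of the 24 genes, 21 were called, all lower. Replicate 2 was the highest of the DMSO samples in 20 of these 21 and the highest of the 0.3 μM samples in 13. The corresponding counts above were 4 and 2 for 1 μM replicates 1 and 3, and 7, 1 and 28 for 0.3 μM replicates 1, 2 and 3, the last with a median length of 3974 bases.

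**Figure D4:**
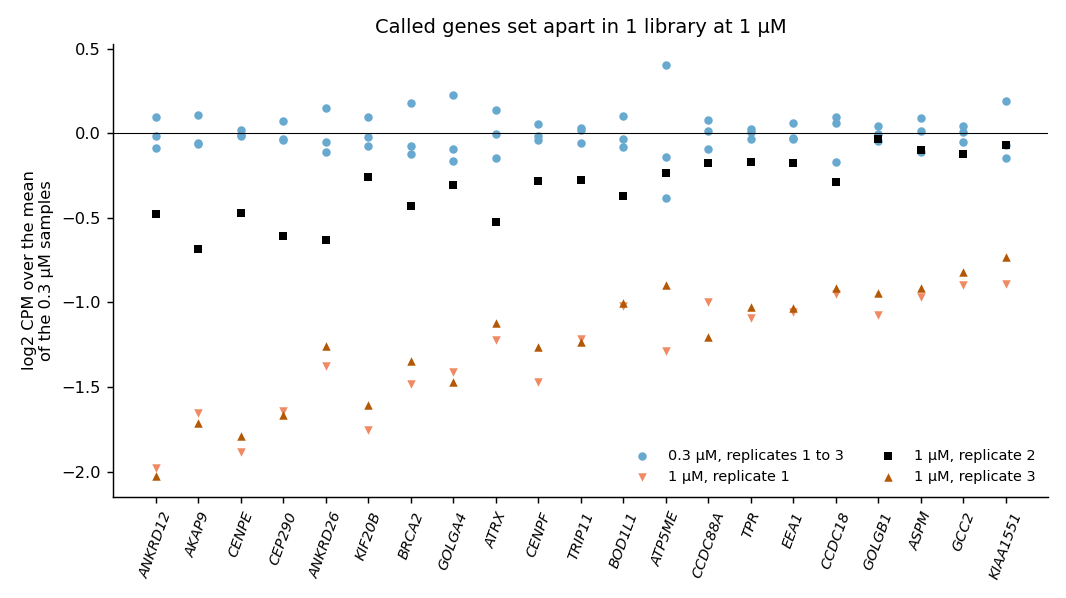
The 21 called genes in which 1 μM replicate 2 was more than 1.5-fold above both other 1 μM replicates, ordered by log2 fold change along the x axis. The y axis gives the log2 ratio of each sample's CPM to the mean of the 0.3 μM samples. Circles are the 0.3 μM samples, triangles are 1 μM replicates 1 and 3, and black squares are 1 μM replicate 2. For CENPE the counts in the 1 μM samples were 408, 1024 and 400.

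Several of these genes encode long coiled-coil proteins of the Golgi or the centrosome, and 2 such lists were made after seeing this. Of 16 golgin and other large coiled-coil genes, 9 were lower and 1 higher (5 lower without 1 μM replicate 1, and 2 lower by DESeq2). The median of the 10 called genes relative to the 0.3 μM mean was −1.03 and −0.98 in 1 μM replicates 1 and 3 and −0.18 in replicate 2. GOLGA4, a tether of the trans-Golgi network, had 1794, 1918 and 2312 counts at 0.3 μM and 780, 1579 and 685 at 1 μM (−0.96 ± 0.20, adjusted p = 0.00547), while TCEA1P2, a pseudogene annotated within it on the same strand, was higher (1.08 ± 0.14). Of 27 centrosome and centriole genes, 8 were lower and 1 higher (5 lower without 1 μM replicate 3). AKAP9, a scaffold of the Golgi and centrosome, had 1105, 1130 and 1221 counts and then 377, 698 and 332 (−1.27 ± 0.18, adjusted p = 0.000251), and CEP290, of the ciliary transition zone, 803, 881 and 786 and then 271, 524 and 245 (−1.22 ± 0.18). CEP152, a scaffold of centriole duplication, went against that pattern of libraries: it had 1145, 1175 and 1147 counts at 0.3 μM and 514, 584 and 497 at 1 μM (−1.10 ± 0.08, adjusted p = 8.30e-07), with all 1 μM replicates close together. ANKRD12, on the rule's list of falls, had 627, 671 and 698 counts and then 174, 464 and 154 (−1.31 ± 0.25), with 1 μM replicate 2 again apart and a log2 fold change of −2.01 without it. By DESeq2 the adjusted p was 0.0816 for ANKRD12 and 0.108 for GOLGA4. The part of library differences in these falls was not tested beyond the fits without each library.

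Of 43 replication fork genes tested, 17 were lower and none higher (median −0.20), with 11 lower without 0.3 μM replicate 2, 1 μM replicate 2 or 1 μM replicate 3. ATAD5, which unloads the PCNA clamp from DNA, had 693, 813 and 776 counts at 0.3 μM and 342, 372 and 338 at 1 μM, beside 695, 874 and 718 in DMSO (−1.09 ± 0.09, adjusted p = 2.50e-06). POLA2, a subunit of the primase polymerase, fell from 329, 299 and 271 counts to 198, 186 and 175 (−0.66 ± 0.11), TICRR, needed to start replication, by 0.58 ± 0.08 on the log2 scale and DNA2, a nuclease and helicase, by 0.54 ± 0.08. All 1 μM samples of these genes were below all 0.3 μM samples. Among 19 origin licensing and MCM helicase genes, 6 were lower and none higher, and the count ranged from 2 to 10 when a library was left out (3 without 0.3 μM replicate 1 or 2 or 1 μM replicate 1 or 2, 2 without 1 μM replicate 3 and 10 without 0.3 μM replicate 3). CDT1, which loads the MCM helicase, had 1843, 1890 and 2027 counts and then 1307, 1274 and 1220 (−0.58 ± 0.07, adjusted p = 6.31e-05). MCM2 was called at −0.22 ± 0.07 but kept that call only without 0.3 μM replicate 3. PCNA, the sliding clamp itself, had 4218, 4200 and 3225 counts at 0.3 μM and 3778, 3218 and 3141 at 1 μM and did not pass the test (−0.18 ± 0.08, adjusted p = 0.156). Of 13 E2F factors and pocket proteins, 3 were lower and 1 higher. E2F8, E2F1 and E2F7 were called at −0.40, −0.33 and −0.30 and each lost the call without at least 1 library (1 member lower without 0.3 μM replicate 2), while E2F3 was called at 0.25 ± 0.08 (adjusted p = 0.0485) and lost the call in 4 of the 6 fits, with adjusted p up to 0.201 without 1 μM replicate 1. Of 18 deoxynucleotide synthesis genes, 3 were higher and 3 lower (median −0.16). None was called in either direction without 1 μM replicate 1, while 8 were lower without 0.3 μM replicate 3. Of 16 G1/S cyclins, CDKs and their inhibitors, 4 were higher and 1 lower (median 0.004). CCND1, the gene of cyclin D1, was higher, with 5561, 5564 and 5251 counts and then 7447, 6520 and 6473 (0.34 ± 0.06, adjusted p = 0.000877), as was CDKN2B, an inhibitor of its kinase partners (0.48 ± 0.08).

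Of 38 homologous recombination and Fanconi anaemia genes, 15 were lower and none higher (median −0.20, 9 without 0.3 μM replicate 2). FANCA, of the Fanconi core complex, fell from 866, 739 and 775 counts to 579, 491 and 485 (−0.60 ± 0.09, adjusted p = 0.000366), and RAD52 and XRCC3, both of homologous recombination, by 0.53 ± 0.11 and 0.53 ± 0.09. Of 32 DNA helicases other than MCM, 11 were lower and 1 higher. ATRX, a chromatin remodeller of repeats and telomeres, had 2491, 2795 and 2967 counts and then 1217, 1856 and 1193 (−0.93 ± 0.13, adjusted p = 0.000237), and was 1 of the genes with 1 μM replicate 2 apart. DDX11, a helicase linked to cohesion, fell from 1444, 1276 and 1098 counts to 831, 680 and 849 (−0.67 ± 0.10), FANCM by 0.67 ± 0.12 and HELLS, a chromatin remodeller of the SNF2 family, from 876, 941 and 862 counts to 784, 544 and 617 (−0.44 ± 0.09). The higher helicase, INO80 (0.24), lost its call in 5 of the 6 fits. MSH5, a MutS homolog that acts on meiotic crossovers, was the one of 8 mismatch repair family genes called (12.5%, against 12.6% of all genes tested). It had 138, 159 and 149 counts at 0.3 μM and 83, 59 and 59 at 1 μM, beside 197, 209 and 185 in DMSO (−1.13 ± 0.16, adjusted p = 0.000365). Its reads cannot be told apart from those of SAPCD1 where the annotations overlap on the same strand. Of 11 Polycomb and DNA methylation genes, DNMT3B (−0.46 ± 0.08), EZH1 (−0.42 ± 0.08) and EZH2 (−0.35 ± 0.06) were lower, and 5 were lower without 0.3 μM replicate 3.

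TERT, the catalytic subunit of telomerase, had 133, 110 and 106 counts at 0.3 μM and 59, 61 and 50 at 1 μM, beside 107, 98 and 84 in DMSO (−1.02 ± 0.18, adjusted p = 0.00142). The 1 μM samples were below all others. Of the 11 other telomerase and shelterin genes, GAR1 alone was called (0.33 ± 0.10), and it lost the call in 5 of the 6 fits that left out a library, with adjusted p up to 0.165 without 1 μM replicate 3.

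Of 36 SR proteins, CLK kinases and LUC7-like splicing genes, 16 were lower and 3 higher (median −0.17). NKTR, which carries a cyclophilin and an SR-rich domain, had 3116, 3356 and 3488 counts at 0.3 μM and 2120, 1714 and 1947 at 1 μM (−0.77 ± 0.07, adjusted p = 9.80e-06). PNISR fell from 3038, 3279 and 3279 counts to 2206, 1713 and 2017 (−0.67 ± 0.07) and DDX39B, a helicase of splicing and mRNA export, from 3021, 2962 and 2992 to 2248, 1810 and 1746 (−0.61 ± 0.07). The doses did not overlap in these genes, and LUC7L3 (−0.54 ± 0.08) and the kinase gene CLK1 (−0.43 ± 0.09) moved likewise. SRSF1, a splicing factor that binds exonic enhancers, was higher, with 579, 705 and 399 counts and then 1027, 839 and 873 (0.72 ± 0.13, adjusted p = 0.00178). SRSF3 and SON were the other 2 higher members, and 1 was called without 1 μM replicate 1. Of 14 long RNAs listed as nuclear-retained, 5 were lower and none higher (median −0.14). The list also held SNHG1, and whether each RNA stays in the nucleus was not tested. MALAT1, a long RNA of nuclear speckles, had 3765, 4461 and 4280 counts and then 2591, 1937 and 2491 (−0.81 ± 0.09, adjusted p = 3.25e-05), and NEAT1, the scaffold of paraspeckles, 3773, 3525 and 4084 and then 2672, 1471 and 2579 (−0.74 ± 0.14, adjusted p = 0.00278). KCNQ1OT1 and SNHG1 fell by 0.59 ± 0.07 and 0.46 ± 0.07 on the log2 scale.

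Outside the protein-coding genes the calls were nearly all falls. Of 2678 genes of other biotypes, 231 were lower (8.63%) and 17 higher (0.635%), while of protein-coding genes 6.36% were lower and 6.93% higher. Antisense genes had 69 lower and 2 higher of 745, sense-intronic genes 14 and none of 109, transcribed unprocessed pseudogenes 30 and 2 of 221, and lincRNAs 32 and 9 of 584. The share of all counts from genes that are not protein-coding was 2.28% to 2.36% at 0.3 μM, 2.01% to 2.21% at 1 μM and 2.37% to 2.44% in DMSO. Of the 69 antisense genes called lower, 62 overlapped a protein-coding gene that was tested, and in 7 of these that gene was called lower too, while of all 745 antisense genes tested 628 overlapped one, which was called lower in 66. Whether strand was used in the counting is not given in the sources used here, so without it the reads of an antisense gene and its partner cannot be told apart. GAS6-AS1, across from GAS6 and overlapping TMEM255B on the same strand, had 51, 31 and 42 counts at 0.3 μM and 18, 7 and 7 at 1 μM (−1.93 ± 0.37, adjusted p = 0.00315). AC124319.2 (−2.04 ± 0.31), DCUN1D2-AS (−2.01 ± 0.44) and AC025186.1 (−1.94 ± 0.37) were the other falls named by rule. The rises were TCEA1P2 (1.08 ± 0.14), STAG3L1 (0.79 ± 0.16, adjusted p = 0.203 in the fit of all 9 samples), RPS2P32 (1.34 ± 0.35) and LINC01291 (0.85 ± 0.24), and the last pair lost their calls without 1 μM replicate 3 (adjusted p = 0.107 and 0.117) and in other fits.

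**Figure D5:**
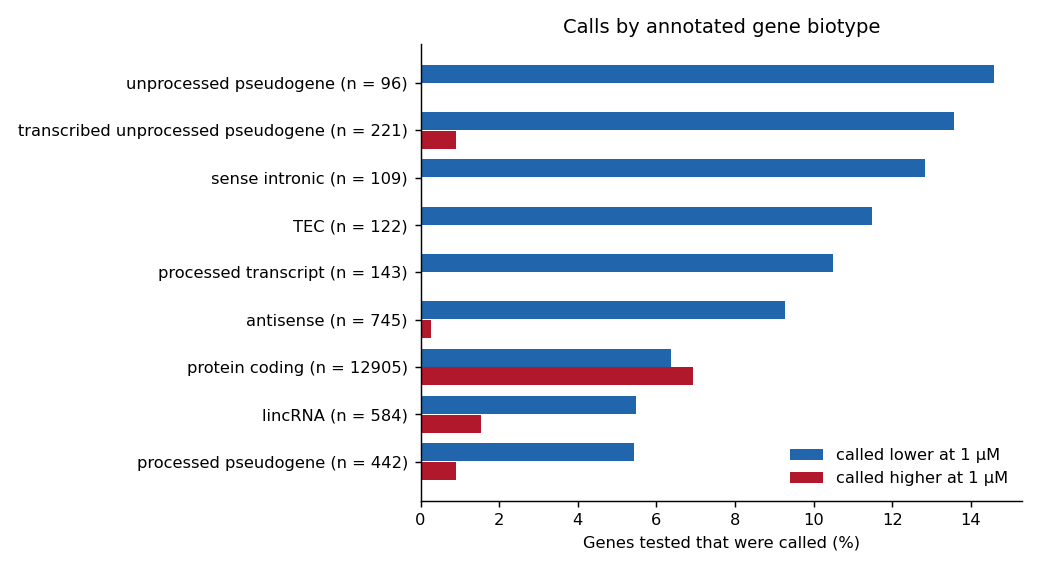
Percentage of tested genes called lower (blue) and higher (red) at 1 μM in each annotated biotype with at least 96 genes tested. The x axis gives the percentage from 0 and the y axis the biotype with its number of genes. Protein-coding genes were called in both directions (6.36% lower, 6.93% higher), and every other biotype shown had more falls than rises.

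Ribosome assembly factors were read in a list made after their values had been seen, in which 12 of 38 were called higher and none lower, with a median of 0.16, and 7 were called without 1 μM replicate 1. RRS1 went from 417, 375 and 408 counts to 643, 629 and 612 (0.67 ± 0.09, adjusted p = 0.00014) and RRP15 by 0.68 ± 0.10. Lists that held few calls were NRF2 targets with 4 higher and 1 lower of 25 (1 higher without 0.3 μM replicate 2 or 1 μM replicate 3), sterol synthesis genes with 4 and 1 of 23, glycolysis and hypoxia genes with 3 and 3 of 27, YAP and SRF targets with none and 2 of 25, autophagy genes with 3 and 2 of 32, and matrix metalloproteinase and urokinase genes with 3 and 1 of 16. These small counts depended on single libraries: 1 sterol gene was higher without 1 μM replicate 3, no glycolysis gene was lower without 0.3 μM replicate 1, 0.3 μM replicate 2, 1 μM replicate 1 or 1 μM replicate 3, none of them was higher without 1 μM replicate 2 or 3, without 0.3 μM replicate 3 the autophagy list had 5 higher, and without 0.3 μM replicate 1 the metalloproteinase list had 5 higher. SQSTM1, an autophagy receptor gene, rose from 5531, 4927 and 6432 counts to 7835, 7205 and 6864 (0.39 ± 0.08, adjusted p = 0.00466), and MAP1LC3B, of the autophagosome membrane, from 1498, 1709 and 1605 to 2222, 2229 and 2220 (0.49 ± 0.07). PDGFRB, a growth factor receptor gene read as a fibroblast marker, fell from 952, 865 and 1012 counts to 657, 628 and 595 (−0.57 ± 0.08), while PDGFRA was called higher on 8 to 29 counts (1.41 ± 0.35) but not without 1 μM replicate 2 (0.0605) or 3 (0.0507). The summed level of the 7 fibroblast markers was 390 to 569.1 CPM at 0.3 μM and 388 to 443.8 CPM at 1 μM, mostly from COL1A1, with 5579 to 8955 and 5839 to 6789 counts.

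The genes that rose and fell also differed in base composition and annotated length. Median GC content was 46.2% for the protein-coding genes called higher and 52.3% for those called lower, against 49.7% for all tested. The share of genes called higher fell from 10.01% in the lowest to 4.08% in the highest of 5 equal groups by GC content. Median annotated length, which is not the genomic span, was 4753 bases for genes called higher and 6424 for genes called lower. The share called lower rose from 3.41% in the shortest to 10.2% in the longest of 5 equal groups by that length. A correction for each sample's GC trend gave 2043 called genes, of which 1742 were called without it, and a correction for length gave 1931 and 1801.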

How the data were processed

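Poly-T selected RNA from KHM-5M cells was sequenced in 9 samples. The authors deposited 1 table for the series with raw read counts per gene, which were used, beside FPKM values and columns of their own comparisons (fold changes and p-values), which were not. The submitters' processing notes name HISAT2 2.0.5, featureCounts 1.5.0-p3 and DESeq2 1.20.0, while the study's methods name another counter and another number of replicates; the labels, with 3 replicates per group, were followed. Strand use in the counting is not given in the sources used here.

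Counts of the 6 treated samples were tested with edgeR 4.0.16 (R 4.3.3, filterByExpr with a minimum count of 10, TMM, quasi-likelihood F test, Benjamini-Hochberg adjustment over all 15583 genes). SE is the log2 fold change divided by the root of F, and CPM is the count scaled to a TMM-adjusted library total of 1000000 (for the floor of 3 counts, the plain total). The test was checked on simulated data. An exact test of 3 against 3 samples cannot give a two-sided p below 0.1, so no single-gene permutation p is given.

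Named genes were, in each direction, the 12 DEGs and the 4 genes of other biotypes with the largest change among those of at least 1 CPM whose doses did not overlap, up to 4 called members of each of 42 lists, and a set of genes kept whatever their values. Genes of 7 further lists, genes with 1 library apart, and other genes outside the rule were chosen after their values were seen. The members and lists were chosen with earlier results of these data known. Promoters and motifs came from RefSeq (GRCh38.p14), with 10208 of the 12905 protein-coding genes tested matched by symbol. Alternatives were DESeq2 1.42.0, RLE scaling, no low-count filter, all 9 samples, a replicate block, corrections for length and GC content, other thresholds and leaving out each library. Some genes are not reported here.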

Additional observations from a re-analysis of the deposited data

How the results depend on the processing

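None of 202 named genes changed direction under any alternative run. Most were named because they were called, so a reversal was unlikely from the start and this count is no support. DESeq2 called 839 genes higher and 831 lower, against 911 and 1052. Leaving out 1 library gave 948 to 1884 called genes in place of 1963, and 899 of the 948 without 1 μM replicate 3 were among the 1963. An unadjusted p under 0.05 gave 4301 called genes and 501 DEGs. DEGs numbered 1715 with no fold threshold, 96 at 2-fold and 507 over all biotypes, and 233 to 300 when 1 library was left out. Fewer samples in those fits leave fewer degrees of freedom; any other cause was not tested. DESeq2 gave 1670 called genes and 226 DEGs, RLE scaling 1943 and 309, all 9 samples 1857 and 310, the length correction 1931 and 304, and the GC correction, added after seeing the data, 2043 and 294. No low-count filter gave 2211 and 355 over 31376 genes, but there the estimated prior degrees of freedom were infinite (13.4 with the filter), so that each gene's own spread was not used and this fit bears on no call. Of the named genes, 27 lost the call by DESeq2, 11 with the GC correction and 63 without 1 μM replicate 3. A replicate block gave 1768 called genes and 317 DEGs. Over all genes tested, the deviations of same-numbered samples of the 2 doses correlated at −0.0018, −0.0222 and −0.0189, and the numbers were not taken as pairs. That check left out DMSO and cannot show a replicate effect confined to some genes. In the 21 called genes with 1 μM replicate 2 apart, DMSO replicate 2 was also the highest of its group in 20. Genes of a few counts per sample, such as CCL28 and IL23A, could be called only for large changes at this depth.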
